A study of Mus musculus with 13 samples.

Results

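The neuromuscular junction and denervation genes examined here are 10 genes picked by symbol, with earlier results of these data known. They are the muscle acetylcholine receptor subunits Chrna1, Chrnb1, Chrnd, Chrng and Chrne, the synaptic kinase gene Musk, the esterase gene Ache, the adhesion gene Ncam1, the transcription factor gene Runx1 and the stress gene Gadd45a. All 10 were found among the 17924 genes in the deposited tables, and all 10 passed the filter on low counts, which left 17069 genes for testing. The gene lists used further below were also chosen with earlier results known. Shares of all genes are therefore printed beside the counts of called genes as a description and not as a test. The study sequenced total RNA of whole muscles of mdm mice, which carry a small deletion in Ttn, the gene of the giant sarcomere protein titin. Here 5 libraries of extensor digitorum longus (EDL), 5 of psoas and 3 of soleus were compared. Every library came from an mdm animal of the strain B6C3Fe a/a-Ttn mdm/J, aged 38 to 42 days for EDL, 29 to 42 days for psoas and 33 to 38 days for soleus. Sex is labelled for 6 of the 13 libraries. It is female for replicate 3 of EDL and of psoas, and male for replicate 2 of each and soleus replicates 1 and 2. The wild-type libraries were not analysed here, so each difference below is a difference between mdm muscles and not an effect of the mutation.

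In an innervated adult muscle fibre, the acetylcholine receptor is made of alpha, beta, delta and epsilon chains and is held under the nerve ending by agrin, LRP4, MuSK, DOK7 and rapsyn. Fetal and denervated fibres make a receptor with a gamma chain in place of epsilon, and they transcribe the alpha, gamma and delta genes, Ncam1, Musk, Runx1 and Gadd45a more strongly along the whole fibre. Myogenic factors such as MyoD and myogenin act on such genes through E-boxes (CANNTG), and ETS factors act at the synapse through the N-box (CCGGAA).

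Promoter windows from the RefSeq tables of GRCm38.p6, which run from 250 bases before to 50 bases after each start, matched 8 of the 10 genes by symbol, all but Chrnd and Ncam1. The parts before the start are printed for 3 receptor genes, Chrng and Chrne because these alternative subunits went in opposite directions, and Chrna1 because its subunit belongs to both receptor forms. The Chrng stretch is chr1:87205561-87205810 on the forward strand, the Chrne stretch chr11:70619195-70619444 and the Chrna1 stretch chr2:73580339-73580588, both on the reverse strand. The RefSeq start behind the Chrng window lies 1154 bases downstream of the GENCODE gene bound given below, at the first base of 1 of its 5 GENCODE transcripts, so this stretch lies inside the gene as located there. The start of Ache lies 735 bases inside its bound and that of Chrne 22, while that of Chrna1 is at its bound. Each is written 5′ to 3′, and capitals mark E-boxes and the N-box.
Chrng: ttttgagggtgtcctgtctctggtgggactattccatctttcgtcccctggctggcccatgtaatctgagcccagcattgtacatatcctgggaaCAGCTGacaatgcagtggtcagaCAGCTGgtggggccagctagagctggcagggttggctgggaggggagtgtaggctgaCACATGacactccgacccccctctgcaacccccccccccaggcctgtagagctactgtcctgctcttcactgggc
Chrne: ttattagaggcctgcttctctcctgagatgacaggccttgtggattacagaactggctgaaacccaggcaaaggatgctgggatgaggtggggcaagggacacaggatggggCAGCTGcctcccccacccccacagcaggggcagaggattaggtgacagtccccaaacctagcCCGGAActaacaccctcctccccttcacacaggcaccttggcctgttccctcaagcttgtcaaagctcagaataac
Chrna1: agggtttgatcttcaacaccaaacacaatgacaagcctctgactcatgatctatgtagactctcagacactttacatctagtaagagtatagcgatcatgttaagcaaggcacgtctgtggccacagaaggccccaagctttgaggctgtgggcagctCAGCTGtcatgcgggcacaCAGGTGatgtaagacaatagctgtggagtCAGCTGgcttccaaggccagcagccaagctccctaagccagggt
Both strands were searched for CANNTG and CCGGAA, and no E-box overlapped an N-box. The windows of Chrng and Chrna1 held 3 E-boxes each and no N-box, as did those of Chrnb1 and Musk. The Chrne window held 1 E-box and 1 N-box, the latter 76 bases before the start. Of 32851 promoter windows of 300 bases, 72.3% held at least 1 E-box, 17.6% held at least 3 and 14.9% held an N-box. Ache had 1 E-box, Gadd45a 1 E-box and 1 N-box, and the Runx1 windows at its 2 starts had 3 E-boxes at one and 1 N-box at the other. These are matches of letters and not evidence of binding.

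Library totals ran from 9114176 to 48835209 counts, with medians of 16986976 in EDL, 20588849 in psoas and 22251013 in soleus. Values below are normalized counts, the counts divided by the authors' size factor of the library, and differences were tested on the raw counts with edgeR's quasi-likelihood test and Benjamini-Hochberg adjustment over the 17069 genes. A gene counted as called where the adjusted p was below 0.01 and the log2 fold change exceeded 1 in size. The 5 slow fibre markers summed to between 190905 and 273420 in soleus and to at most 39031 in any EDL or psoas library, with Myh7 and Tnni1 the most abundant, as the muscle labels would have it. The labels number the libraries as replicates, and the study's methods call the soleus samples biological replicates and those of EDL and psoas replicates, from fewer mice than samples in all. Which libraries share a mouse is not given in the sources used here, so the p-values measure the spread between these libraries.

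Psoas differed from EDL in 4 of the 10 genes. Chrnd, Chrng and Runx1 were higher in psoas and Chrne was lower, against 2.43% of all genes called higher, 2.5% called lower and 4.93% in either direction. At an adjusted p under 0.05 with no limit on size, 6 passed, 5 higher and 1 lower, against 18.1% of all genes. DESeq2's Wald test also called 3 higher and 1 lower, against 4.76% and 4.53% of all genes. The median log2 fold change of the 10 genes was 0.80, beside 0.02 over all genes tested. Ranges free of overlap were higher in psoas for Chrna1, Chrnd, Ncam1 and Runx1, against 6.48% of all genes, and lower for Chrne, against 6.56%. In a whole muscle, fewer cells of a type and less RNA per cell cannot be told apart, and this holds for each value here. The RNA integrity numbers that the study reports were no higher in any psoas library than in any EDL library. Muscle and RNA quality therefore cannot be told apart in this comparison. Mean levels were highest in psoas for 6 genes, in EDL for 3 (Chrnb1, Chrne and Ache) and in soleus for 1 (Musk).

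**Figure D1:**
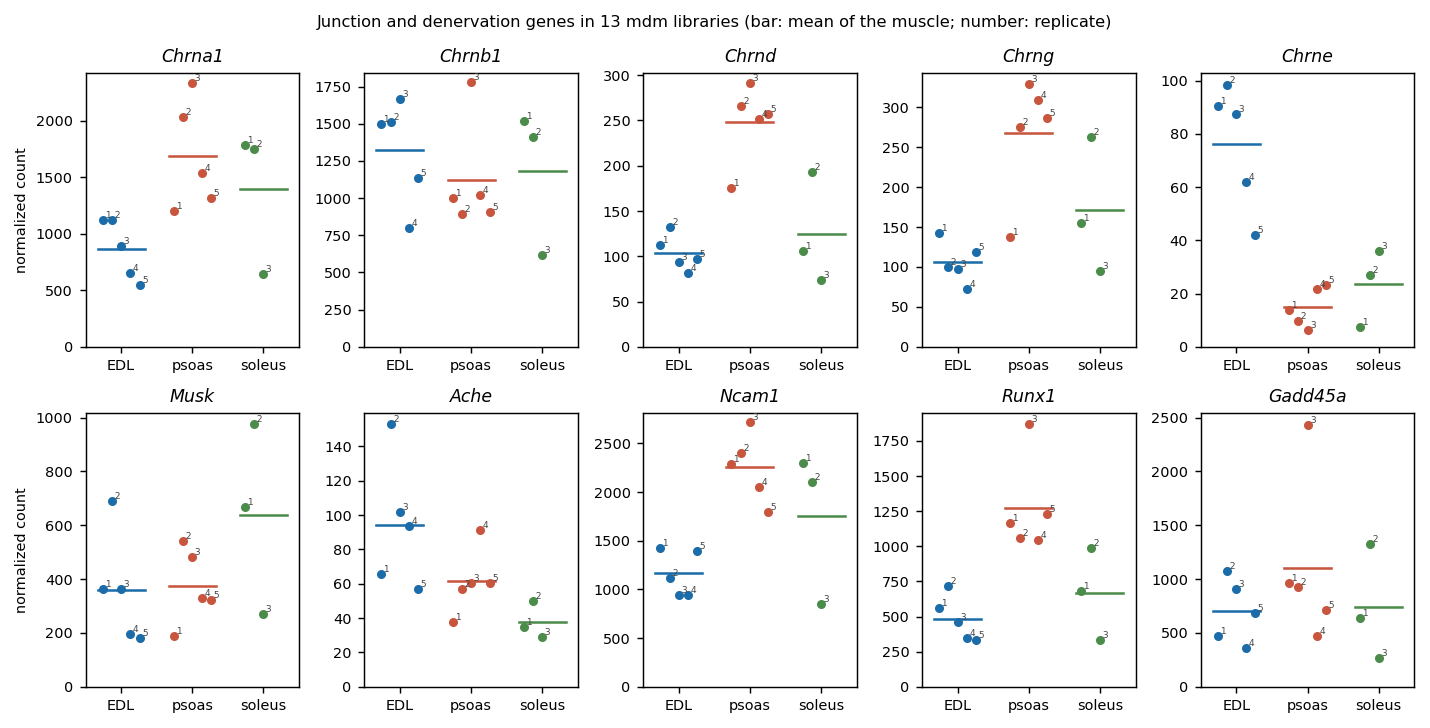
Normalized count (vertical axis, from 0) of each of the 10 genes in the 13 mdm libraries, with 1 point per library, the replicate number beside it and a bar at the mean of each muscle. Chrne sits between 41.93 and 98.25 in EDL and between 6.412 and 23.21 in psoas, while Chrnd, Runx1, Ncam1 and Chrna1 sit higher in every psoas library than in every EDL library.

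Chrne differed most between psoas and EDL among the 10 genes. It encodes the adult epsilon subunit (chromosome 11, 70614883 to 70619216, reverse strand, GRCm38). Normalized counts in EDL replicates 1 to 5 were 90.69, 98.25, 87.60, 62.08 and 41.93. In psoas they were 13.97, 9.612, 6.412, 21.71 and 23.21, and in soleus 7.449, 27.14 and 36.11. Every psoas and every soleus library lay below every EDL library. Against EDL, psoas was 5.11-fold lower (log2 fold change -2.35, SE 0.452, edgeR adjusted p = 0.00452), and soleus was at a log2 fold change of -1.75 (SE 0.537, adjusted p = 0.10), which did not pass. These 2 comparisons share the EDL libraries. Reads were few in psoas, with raw counts of 30, 18, 7, 25 and 28, so a counting error of several reads weighs on each value. The psoas call was lost without EDL replicate 3 (adjusted p = 0.0128), psoas replicate 1 (0.0113) or psoas replicate 2 (0.0146), and with the label code, a tag of T1 to T6 in the labels, as a block (0.0116). The difference was in the same direction within each code that holds both muscles, at a log2 ratio of -3.2 in T4, -3.51 in T5 and -1.12 in T6. The gene overlaps 4930544D05Rik on the opposite strand, and since the strand setting of the counting was not given in the sources used here, reads of the pair cannot be told apart.

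Chrng, the fetal gamma subunit (chromosome 1, 87204657 to 87212694, forward strand), went the other way. Its normalized counts were 142.6, 100.2, 97.55, 71.88 and 119.0 in EDL, 137.9, 275.0, 329.7, 309.2 and 286.0 in psoas, and 155.6, 262.8 and 94.56 in soleus. Psoas replicates 2 to 5 were above every EDL library, whereas psoas replicate 1 lay inside the EDL range. That library came from the youngest mouse, at 29 days, and was the only library of code T3. Age and code cannot be told apart for it. Psoas was 2.5-fold higher than EDL (log2 fold change 1.32, SE 0.297, edgeR adjusted p = 0.00943). With the replicate number as a block the gene was not called (adjusted p = 0.0115), in a fit that pairs the libraries numbered 1 although they differ in code and age, and without psoas replicate 1 the log2 fold change was 1.49 (adjusted p = 0.00574). The call was lost in 10 of 13 fits that left out a library, namely each EDL library, psoas replicates 2 to 5 and soleus replicate 1, with adjusted p up to 0.0263.

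Chrnd, the delta subunit of both receptor forms, lies beside Chrng (chromosome 1, 87190607 to 87200070, forward strand) and had a like pattern. EDL libraries held 112.8, 132.7, 93.57, 81.68 and 97.38 normalized counts, psoas libraries 175.2, 265.9, 291.3, 251.9 and 257.0, and soleus libraries 106.3, 193.5 and 73.93. All psoas libraries were above all EDL libraries, and psoas replicate 1 was again the lowest of its muscle. Psoas was 2.38-fold higher than EDL (log2 fold change 1.25, SE 0.252, edgeR adjusted p = 0.00585). The call was lost in 8 of 13 fits without 1 library (EDL replicate 1, 3, 4 or 5, or psoas replicate 2, 3, 4 or 5), with adjusted p up to 0.0181. Over the 13 libraries the log2 CPM of Chrng correlated best with that of Chrnd among all genes (Pearson r 0.92, Spearman rho 0.91). The reverse did not hold, since Chrng had rank 10 among the genes most like Chrnd, and the closest was Vps18 (Pearson r 0.961). These coefficients describe these libraries only, since the libraries share muscle and depth.

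Chrna1, the alpha subunit that binds acetylcholine (chromosome 2, 73563215 to 73580338, reverse strand), was at 1122, 1117, 891.9, 656.7 and 549.1 in EDL, at 1202, 2036, 2330, 1535 and 1315 in psoas, and at 1785, 1745 and 644.8 in soleus. All psoas libraries lay above all EDL libraries, by a small margin for psoas replicate 1. The log2 fold change of 0.95 (SE 0.305, edgeR adjusted p = 0.0429) was not called. With the label code as a block it was called, at 1.19 (adjusted p = 0.00263). Chrnb1, the beta subunit (chromosome 11, 69784036 to 69795943, reverse strand), was at 1496, 1512, 1666, 797.2 and 1135 in EDL, 1001, 895.6, 1782, 1019 and 906.0 in psoas, and 1522, 1409 and 615.5 in soleus. The 3 muscles overlapped, and psoas differed from EDL by a log2 fold change of -0.24 (SE 0.288, adjusted p = 0.598).

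Subunit by subunit the receptor genes thus stood in different proportions in the muscles. Per kilobase of exon, mean normalized counts in EDL were 522 for Chrnb1, 198 for Chrna1, 45.0 for Chrne, 31.5 for Chrnd and 25.5 for Chrng. In psoas they were 443 for Chrnb1, 384 for Chrna1, 75.5 for Chrnd, 64.3 for Chrng and 8.87 for Chrne. Chrne was thus above Chrng and Chrnd in EDL on this scale and below both in psoas. The exon length is the union of all annotated exons of a gene, 4163 bases for Chrng, 3288 for Chrnd and 1690 for Chrne. The order in EDL depends on this scaling, since the unscaled means there were 106.3 for Chrng, 103.6 for Chrnd and 76.11 for Chrne. In soleus the means per kilobase were 467 for Chrnb1, 317 for Chrna1, 41.1 for Chrng, 37.9 for Chrnd and 13.9 for Chrne.

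The ratio of Chrng to Chrne in counts, not scaled by exon length, is given for each library as a description without a test. It was 1.57, 1.02, 1.11, 1.16 and 2.84 in EDL, 9.87, 28.6, 51.4, 14.2 and 12.3 in psoas, and 20.9, 9.68 and 2.62 in soleus. Psoas and EDL did not overlap, and soleus replicate 3 lay within the EDL range. In counts Chrng thus exceeded Chrne in every EDL library. Per exon length the median ratio was 0.470 in EDL, 5.78 in psoas and 3.93 in soleus. In EDL replicate 5 it was 1.15, so Chrng stood above Chrne there on that scale too. The ratio of Chrna1 to Chrnb1 ran from 0.484 to 0.824 in EDL, from 1.20 to 2.27 in psoas and from 1.05 to 1.24 in soleus, so that EDL lay below both other muscles in every library. Chrng over Chrnd had medians of 1.04 in EDL, 1.11 in psoas and 1.36 in soleus.

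**Figure D2:**
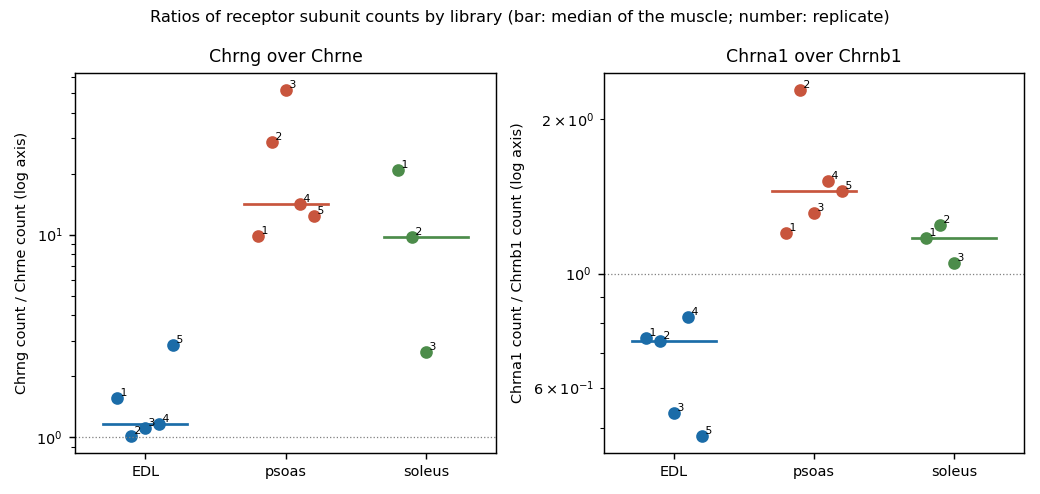
Ratio of normalized counts of Chrng to Chrne (left) and of Chrna1 to Chrnb1 (right) on log axes, with 1 point per library, the replicate number beside it, a bar at the median of the muscle and a dotted line at equal counts. The Chrng to Chrne ratio is at most 2.84 in EDL and at least 9.87 in psoas.

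Musk, the receptor tyrosine kinase that agrin activates through LRP4 (chromosome 4, 58285960 to 58374303, forward strand), varied widely within each muscle. Its normalized counts were 362.8, 689.7, 362.3, 195.0 and 182.6 in EDL, 188.2, 539.9, 480.9, 330.9 and 323.3 in psoas, and 667.5, 977.0 and 269.9 in soleus. The muscles overlapped, and psoas differed from EDL by a log2 fold change of 0.04 (SE 0.408, edgeR adjusted p = 0.954). Ache, whose enzyme breaks down acetylcholine in the cleft (chromosome 5, 137287519 to 137294466, forward strand), was at 65.57, 153.1, 101.5, 93.66 and 56.81 in EDL, 37.73, 57.14, 60.45, 91.20 and 60.51 in psoas, and 34.76, 49.99 and 29.23 in soleus. All soleus libraries lay below all EDL libraries, with a log2 fold change of -1.29 (SE 0.379, edgeR adjusted p = 0.0823) that did not pass. Psoas overlapped EDL (log2 fold change -0.63, SE 0.311, adjusted p = 0.173).

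Ncam1, an adhesion molecule that spreads over the fibre surface after denervation (chromosome 9, 49502136 to 49798925, reverse strand), had normalized counts of 1421, 1122, 941.7, 946.4 and 1396 in EDL, 2294, 2406, 2718, 2051 and 1799 in psoas, and 2304, 2100 and 852.8 in soleus. Every psoas library was above every EDL library, while soleus spanned from below EDL into the psoas range. The psoas difference of 0.95 on the log2 scale (SE 0.250, edgeR adjusted p = 0.0186) was not called. Schwann cells also make NCAM, and the 9 Schwann cell markers summed to 1344 to 2803 normalized counts in EDL, 3890 to 24978 in psoas and 2829 to 7002 in soleus. Of these, 4 of 9 were called higher in psoas than in EDL and 0 lower, against 2.43% and 2.5% of all genes, and none was at 0 in every library. In psoas replicates 1 to 5 the Schwann sums were 24978, 13370, 4349, 3890 and 8499. The part of these cells in the Ncam1 difference was not tested.

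Runx1, a transcription factor that denervated muscle induces (chromosome 16, 92601466 to 92826149, reverse strand), was at 557.8, 718.4, 459.9, 348.5 and 332.7 normalized counts in EDL, 1163, 1058, 1871, 1043 and 1228 in psoas, and 683.2, 989.8 and 335.3 in soleus. Every psoas library was above every EDL and every soleus library. Psoas was 2.62-fold higher than EDL (log2 fold change 1.39, SE 0.300, edgeR adjusted p = 0.00819). The call was lost in 10 of 13 fits without 1 library (EDL replicate 1, 3, 4 or 5, each psoas replicate, or soleus replicate 1), with adjusted p up to 0.0242. Soleus was at -0.91 against psoas (SE 0.351, adjusted p = 0.302) and did not pass. Gadd45a, a growth arrest gene that denervation induces (chromosome 6, 67035096 to 67037457, reverse strand), was at 472.6, 1078, 903.8, 363.8 and 683.0 in EDL, 964.3, 923.9, 2432, 472.5 and 712.0 in psoas, and 643.1, 1321 and 264.8 in soleus. The muscles overlapped and psoas replicate 3 stood far above the rest (log2 fold change of psoas against EDL 0.65, SE 0.474, edgeR adjusted p = 0.365). Ncam1, Gadd45a, Runx1 and Ache each overlap a gene on the opposite strand, Gm11149, E230016M11Rik, Gm26626 and Gm42456, and without the strand setting the reads of such pairs cannot be told apart.

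**Figure D3:**
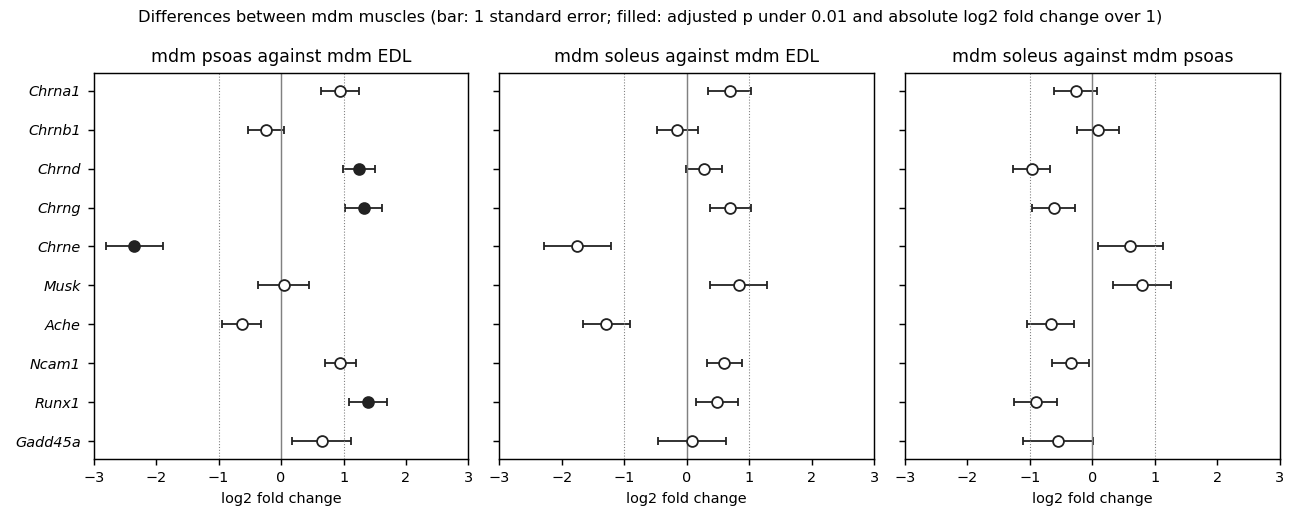
Log2 fold change of the 10 genes in 3 comparisons of mdm muscles (horizontal axis), with bars of 1 standard error and filled points for called genes. The 4 filled points are those of Chrnd, Chrng, Runx1 and Chrne in psoas against EDL, and no point is filled in the soleus comparisons.

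Soleus gave 0 called genes of the 10 against EDL and 0 against psoas by edgeR's quasi-likelihood test, against 0.978% and 0.0762% of all genes called in either direction, and DESeq2's Wald test called 0 in each, against 3.71% and 1.0% of all genes. At an unadjusted p under 0.05 there were 2 in each, against 15.1% and 12.7% of all genes, Chrne and Ache against EDL and Chrnd and Runx1 against psoas. Ranges free of overlap were lower than EDL for Chrne and Ache, against 5.72% of all genes, and lower than psoas for Runx1, against 5.19%. The median log2 fold change of the 10 genes was 0.38 against EDL and -0.45 against psoas, beside -0.03 over all genes in both. Soleus replicate 3 was the lowest soleus library in 9 of the 10 genes, Chrne being the exception, beside 38.8% of all genes, and had the smallest total of all libraries. Without it, Chrna1 in soleus against EDL moved from 0.69 to 1.04, Musk from 0.83 to 1.20 and Ncam1 from 0.60 to 0.93, with edgeR adjusted p of 0.118, 0.224 and 0.0602. Leaving out the lowest library of a muscle raises its mean in any case, so the direction of these shifts carries no information.

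Among 29 genes of the junction listed as partners, 28 were measured, and Nrg1 was not analysed here. In psoas against EDL, 6 were called higher and 1 lower, against 2.43% and 2.5% of all genes, with a median log2 fold change of 0.25 beside 0.02 over all genes. At an adjusted p under 0.05 with no limit on size the balance was more even, with 9 higher and 5 lower against 18.1% of all genes in either direction, and 15 of the 28 had a positive and 13 a negative log2 fold change. The higher ones were Agrn, which encodes the clustering signal agrin, Rapsn, which encodes the receptor's scaffold rapsyn, the neuregulin receptors Erbb2 and Erbb3, the syntrophin Sntb1 and the cytoskeletal linker Macf1. Rapsn had a mean of 54.18 ± 14.9 (SD, n = 5) in EDL and 128.1 ± 24.5 in psoas (log2 fold change 1.23, SE 0.251, edgeR adjusted p = 0.00612). Erbb2 was at 66.54 ± 25.3 in EDL and 207.4 ± 43.8 in psoas (1.62, SE 0.277, adjusted p = 0.00268). Agrn was at a log2 fold change of 1.08, Sntb1 at 1.27, Macf1 at 1.08 and Erbb3 at 1.01. Erbb3 and Erbb2 are also genes of Schwann cells, whose markers moved as given above. Rapsn and Erbb2 overlap opposite-strand genes, Gm13778 and Mien1.

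The partner called lower was Etv4, an ETS factor gene (53.95 ± 10.7 in EDL and 20.50 ± 4.69 in psoas, log2 fold change -1.41, SE 0.275, edgeR adjusted p = 0.00498). The others lower at an adjusted p under 0.05, named here after their values were seen, were Pak1 (-1.16, adjusted p = 0.0441), Ufsp1 (-0.83, 0.0297), Dtna (-0.79, 0.0317) and Lamb2 (-0.67, 0.0241), by edgeR. Etv4 was also among the 3 genes whose log2 CPM was most like that of Chrne over the 13 libraries, at a Pearson r of 0.92, after AW011738 at 0.936 and Ranbp3l at 0.93. Etv5, another ETS factor gene of the list, named after its value was seen, did not differ between psoas and EDL (-0.03, SE 0.207, edgeR adjusted p = 0.936). Dok7, whose protein activates MuSK, was at -0.47 (SE 0.340, adjusted p = 0.363), Lrp4 at 0.37 (SE 0.173, 0.153) and Colq, the collagen tail of the esterase (its locus is shared with Gm49387), at 0.28 (SE 0.339, 0.607), so none of these passed. Soleus against EDL had 1 partner called, Pak1, a kinase that acts on actin, which was lower (log2 fold change -2.83, SE 0.489, edgeR adjusted p = 0.00707), against 0.978% of all genes. DESeq2 called Pak1 lower there and also Utrn, the utrophin gene, higher (log2 fold change 1.15, DESeq2 adjusted p = 0.00474), against 3.71% of all genes. Soleus against psoas had 0 by edgeR and 0 by DESeq2, with 8 at an unadjusted p under 0.05. The shares of all genes were 0.0762%, 1.0% and 12.7%. The Pak1 call was lost in 5 of 13 fits without 1 library (EDL replicate 2 or 3, or any soleus replicate), with adjusted p up to 0.0466. Leaving out 1 library cut the psoas count from 7 to as few as 2, without EDL replicate 3, psoas replicate 2 or psoas replicate 3, when Erbb2 and Sntb1 remained. Both stayed called in all 13 such fits, Etv4 in 8, Rapsn in 6, Agrn and Erbb3 in 4 each and Macf1 in 3.

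Of 12 further genes known to respond to denervation, 11 were measured, and Gdf5 was not analysed here. In psoas against EDL 2 were called higher and 0 lower, against 2.43% and 2.5% of all genes, with a median log2 fold change of 0.38 beside 0.02 over all genes. Of the 11, 7 had a positive and 4 a negative log2 fold change. Myod1, a myogenic factor gene, was at 136.8 ± 42.5 in EDL and 408.0 ± 105 in psoas (log2 fold change 1.58, SE 0.234, edgeR adjusted p = 0.00137), and it stayed called in 13 of 13 fits without 1 library. Cdkn1a, the cell cycle inhibitor p21, was at 209.3 ± 76.3 in EDL and 583.6 ± 192 in psoas (1.47, SE 0.280, adjusted p = 0.00429), and its call was lost without EDL replicate 3, EDL replicate 5 or psoas replicate 1, with adjusted p up to 0.0146. Myog, the myogenin gene, was at 0.81 (SE 0.277, adjusted p = 0.0562) and was not called. The genes on the negative side, named here after their values were seen, were Ankrd1 at -0.97 (SE 0.293, edgeR adjusted p = 0.0339), the ubiquitin ligase genes Trim63 at -0.77 (0.233) and Fbxo32 at -0.16 (0.875), and the deacetylase gene Hdac9 at -0.49 (0.432), of which Ankrd1 alone passed an adjusted p of 0.05. Soleus against EDL had 0 called by edgeR, 2 at an unadjusted p under 0.05 and 0 by DESeq2. The shares of all genes there were 0.978%, 15.1% and 3.71%. Soleus against psoas had 0 called by edgeR, 4 at an unadjusted p under 0.05 and 2 by DESeq2, Myod1 and Cdkn1a, both lower. The shares of all genes in that comparison were 0.0762%, 12.7% and 1.0%.

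**Figure D4:**
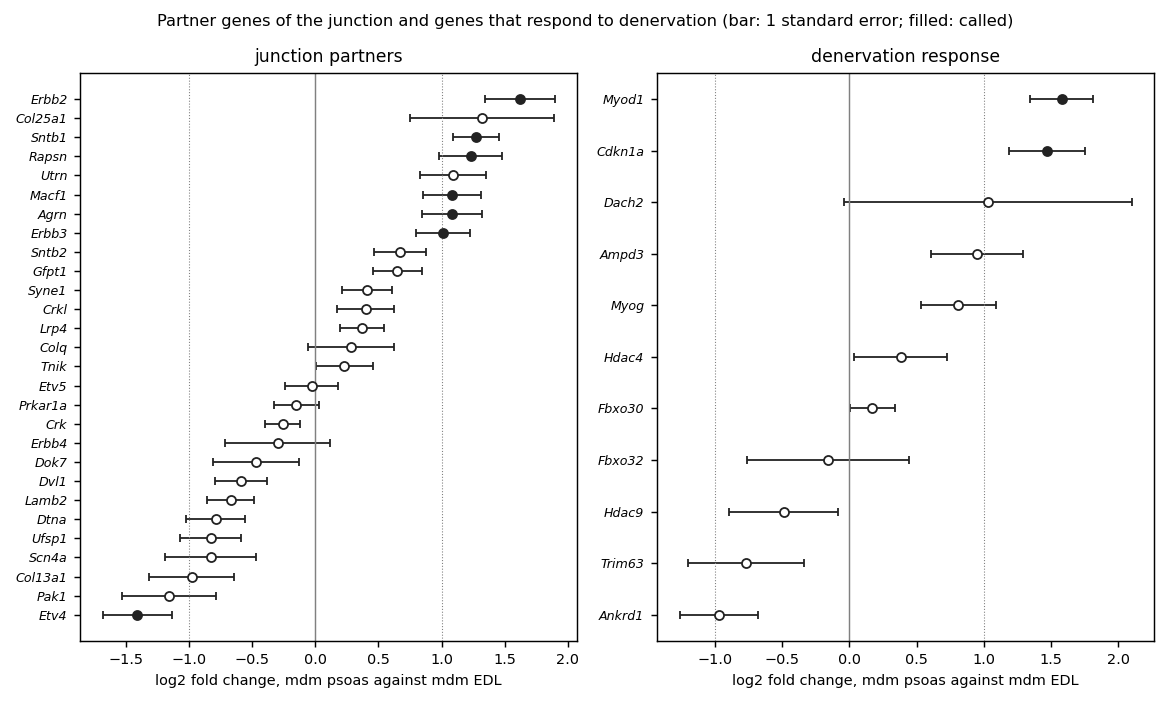
Log2 fold change in mdm psoas against mdm EDL (horizontal axis) of 28 junction partners (left) and 11 genes that respond to denervation (right), with bars of 1 standard error and filled points for called genes. The left panel has 6 filled points on the higher side and 1 on the lower side, and the right panel has 2, Myod1 and Cdkn1a.

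Markers of other cells and of new fibres were measured beside these genes. In psoas against EDL, 2.43% of all genes were called higher and 2.5% lower, and the calls below stand beside these shares. The 8 newly formed myofibre markers, with Myh3 and Myh8 the most abundant, summed to 40512 to 71147 normalized counts in EDL, 73094 to 148320 in psoas and 60717 to 182659 in soleus. Of the 8, 2 were called higher in psoas than in EDL and 0 lower, 7 had a positive log2 fold change, and Mybph had a negative one (-1.26, SE 0.533, edgeR adjusted p = 0.112). Satellite cell markers summed to 2366 to 3722 in EDL, 2684 to 4948 in psoas and 1941 to 4255 in soleus, with Sdc4 and Chodl the most abundant. Of these 8 markers 7 had a positive log2 fold change in psoas against EDL, 1 was called higher (Heyl, 1.32, SE 0.283, edgeR adjusted p = 0.00778) and 0 lower, and Pax7, at 1.03 (SE 0.296, 0.0281), and Myf5, at 1.27 (SE 0.421, 0.0499), passed an adjusted p of 0.05 only. Pax7, the gene that defines satellite cells, was at 33.18 to 50.1 normalized counts in EDL, 54.71 to 151.1 in psoas and 30.95 to 36.42 in soleus, so that psoas lay above both other muscles. Leukocyte markers summed to 3731 to 14090, 3146 to 12630 and 4062 to 7967. RNA of fibre protein genes differed too, since the 6 skeletal muscle markers summed to 1008795 to 1722350 in EDL and 498587 to 958496 in psoas. Acta1 and Myh1 were the most abundant. Of the 6, 5 had a negative log2 fold change and 1 was called lower (Ckm, -1.67, SE 0.302, edgeR adjusted p = 0.00356). Des was positive, at 0.56 (SE 0.268, 0.156). The 6 fast fibre markers, among them Myh4 and Tnnt3, ran from 598652 to 1460152 in EDL, 89401 to 238641 in psoas and 43032 to 73973 in soleus, with 4 of 6 called lower in psoas. Fibroblast markers, at 33036 to 82871 in EDL and 42698 to 118370 in psoas, had 0 of 6 called in either direction by edgeR and by DESeq2, with 1 at an unadjusted p under 0.05, and endothelial markers, at 1630 to 4120 and 1875 to 2998, had 0 of 4 by both tools, with 1 at an unadjusted p under 0.05. The part of any of these in the differences of the 10 genes was not tested.

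**Figure D5:**
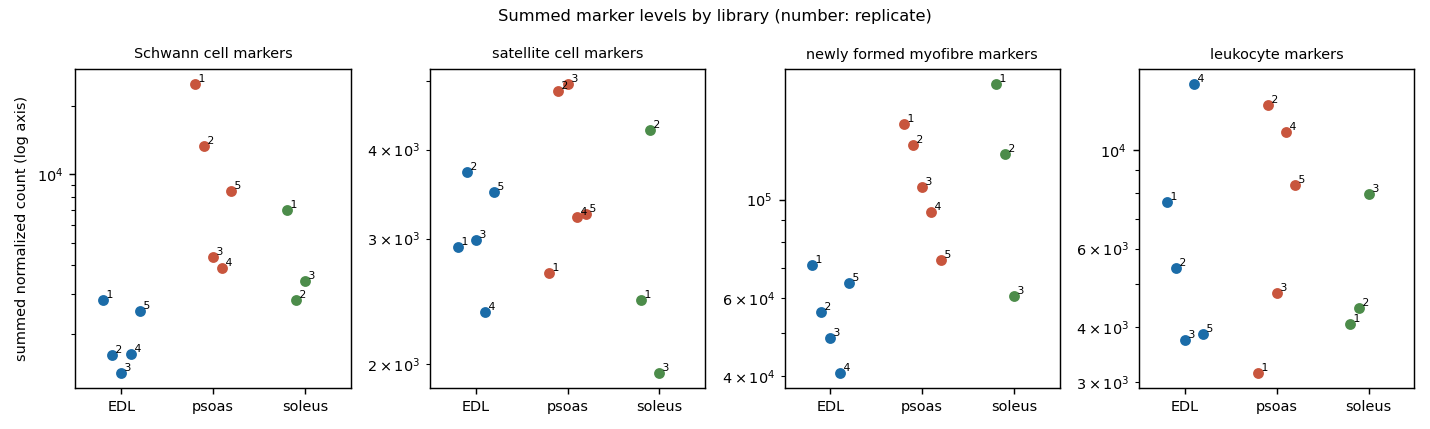
Summed normalized count of 4 marker lists (vertical log axes) in each library, with the replicate number beside each point. Schwann cell markers are between 1344 and 2803 in EDL and between 3890 and 24978 in psoas, without overlap, while leukocyte markers overlap among the muscles.

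Among the 10 genes, Chrnd and Runx1 varied most alike over the 13 libraries (Pearson r 0.94, Spearman rho 0.92 of log2 CPM), and Chrna1 with Runx1 had r 0.88. Chrne ran opposite to Ncam1, at r -0.84, and to Chrna1, at -0.68. Chrnb1 followed none of Chrnd, Chrng and Chrne closely, with r from 0.03 to 0.18, and its closest genes were Rab12, Clasp2 and Utp4. The closest genes of Runx1 were Zhx2, Fto and Palld, those of Musk were Ucp2, Ifngr1 and Fam168a, and the closest gene of Ache was Camk2a at r 0.94. These coefficients describe 13 libraries of 3 muscles and have no test.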

How the data were processed

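Total RNA of whole muscles was made into stranded libraries and sequenced in paired reads. The authors trimmed low-quality libraries with Trimmomatic 0.32, aligned the reads to GRCm38 with TopHat2 2.1.1 and counted reads per gene. The counts they deposited are whole. A second table, a normalized signal by the authors, is each count over its library's DESeq2 size factor, which the files matched within a relative deviation of 5.3e-15. The size factors come from a set that includes libraries not analysed here. How reads were assigned by overlap and strand was not given in the sources used here. GENCODE mouse release M21 gave symbols, GRCm38 coordinates and exon lengths for 17833 of 17924 genes.

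The counts were fitted with edgeR 4.0.16 in R 4.3.3, with TMM normalization, muscle as the only factor and all 13 libraries in 1 fit, for the 17069 genes whose normalized count reached 10 in 3 or more libraries. Calls required an adjusted p below 0.01 and a log2 fold change beyond 1 in either direction. The SE is the log2 fold change over the square root of F. The study fitted the sequencing run too, which the labels do not name, so the label code was tried as an alternative. Alternatives were DESeq2 1.42.0, its size factors in edgeR, no filter, only the muscles compared, the code or the replicate number as a block, an adjusted p under 0.05 with no limit on the fold change, and leaving out each library. Log2 CPM used a prior count of 2. The fits were tested on simulated data. Tables were made in Python 3.11.15 using pandas 2.3.3 and numpy 2.4.6, and plots using matplotlib 3.10.9.

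The 10 genes and all lists were chosen with earlier results of these data known. Some genes of the lists are not reported here, and they were taken out of the list counts and sums after the results had been seen. Named beside them were each partner or denervation gene called in a comparison, Rapsn, Dok7, Lrp4, Colq and Myog in any case, the 2 most abundant genes of the marker lists, and the 3 genes most correlated with a member. Same-numbered EDL and psoas libraries deviated from their group means together, with correlations of 0.407, 0.370, 0.316, 0.289 and 0.371. All were above the limit of 0.1, at which the numbers were used as a block. The libraries numbered 1 differ in code (T1 and T3) and in age (38 and 29 days), so they cannot come from 1 mouse. Theirs was the highest of these correlations, so the limit cannot show which libraries share a mouse. Of 23 replicate pairs within muscles, none was a duplicate (smallest chi-square per degree of freedom 53.09). The reads carry no molecular identifiers.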

Additional observations from a re-analysis of the deposited data

Results flagged for a closer look

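In groups of 5 libraries, a highest or lowest library was set against the others by Dixon's test, in which chance singles out about 1 in 20 groups. This was done for 74 groups (the named genes, the marker sums and the subunit ratios, each in EDL and in psoas). In all, 7 values stood apart, each in psoas replicate 1, 3 or 4. In psoas, replicate 3 was far above the other 4 for Chrnb1 at 1782 normalized counts (others 895.6 to 1019), for Runx1 at 1871 (1043 to 1228), for Gadd45a at 2432 (472.5 to 964.3) and for Dok7 at 881.1 (311.6 to 344.0). Psoas replicate 1 was far below the others for Chrng at 137.9 (275.0 to 329.7) and far above them for Cdkn1a at 923.3 (456.8 to 536.3). Psoas replicate 4 was far above the others for Colq at 132.0 (36.31 to 61.02). Psoas replicate 3 was the highest psoas library in 7 of the 10 junction and denervation genes, beside 20.7% of all genes. That library is labelled female, 42 days and code T5, as is EDL replicate 3. No other psoas library is labelled so, and sex, age and code cannot be told apart here.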

How the results depend on the processing

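Of the 10 genes, 4 were called in psoas against EDL, and 4 under DESeq2, its size factors, the 2 muscles alone or the label code as a block, the last with Chrna1 in place of Chrne. Without the filter or with the replicate block, 3 were called, Chrng being lost. That block matches EDL and psoas libraries by number, although those numbered 1 cannot come from 1 mouse. Without a limit on the fold change, 6 of the 10 genes and 14 of the partners passed an adjusted p of 0.05. Only the codes that hold more than 1 muscle, an alternative chosen after seeing the data, left 1 (Chrng), with 1 of the partners in place of 7, and leaving out 1 library left 0 to 4, with 0 without EDL replicate 3 or psoas replicate 2. Calls over all genes, 841 in the reported fit, numbered 317 and 365 without these libraries, 317 to 802 over all fits without 1 library, 343 with the shared codes and 1267 with the replicate block. The soleus comparisons had 0 under each of these. The soleus numbers are shared with the other muscles without pairing them (correlations -0.302 to 0.421), and a replicate block there changed no call of the 10 genes. The values that turned direction belong to uncalled genes, and the cause was not tested. In soleus against psoas, Chrnb1 turned to -0.10 with the replicate block and -0.02 with the code block, and Dok7 to 0.06 with the code block. In soleus against EDL, Gadd45a turned to -0.30, -0.26 and -0.02 with the replicate block, the code block and the shared codes, Rapsn to -0.01 with the code block and with the shared codes, Erbb3 to -0.07 with the code block, and Myog and Myod1 to 0.04 and 0.12 with the replicate block. Over fits without 1 library, Chrna1 ranged from -0.48 to 0.07, Chrnb1 from -0.13 to 0.39, Dok7 from -0.28 to 0.26 and Colq from -0.14 to 0.45 in soleus against psoas, and in soleus against EDL Chrnb1 ranged from -0.37 to 0.16, Chrnd from -0.19 to 0.53, Gadd45a from -0.61 to 0.49, Lrp4 from -0.22 to 0.00, Rapsn from -0.03 to 0.34, Erbb3 from -0.13 to 0.29, Myog from -0.31 to 0.04 and Cdkn1a from -0.42 to 0.13. In psoas against EDL, Musk ranged from -0.13 to 0.44 and Colq from -0.12 to 0.43. Among the 10 genes the lowest read count was 7, for Chrne in psoas replicate 3, so depth limits this gene most.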

Other observations

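The developmental myosin genes, which label fibres that are newly formed, differed in order between the muscles. Myh8, the perinatal myosin gene, was at 17650 to 30660 normalized counts in EDL, 26030 to 52630 in psoas and 6260 to 7403 in soleus. It was lower in soleus than in EDL (log2 fold change -1.85, SE 0.289, edgeR adjusted p = 0.00446) and than in psoas (-2.56, SE 0.301, adjusted p = 0.00163). Myh3, the embryonic myosin gene, was at 10520 to 36380 in EDL, 25700 to 86940 in psoas and 50000 to 167400 in soleus, and its difference between soleus and EDL was 2.29 (SE 0.495, adjusted p = 0.0199), which was not called.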
